A study of Mus musculus with 16 samples.

Results

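Organoid lines from metastases of mouse pancreatic ductal adenocarcinoma were split by how strongly they expressed genes of the classical subtype, and the rest of their transcriptome was described across that split. The 8 lines described are 4 classical-high and 4 classical-low lines out of 9 metastasis lines, in a series of 16 lines from 6 mice. Each metastasis line was given a score, the mean of log2(TPM + 1) over Lgals4, Tff1, Tff2, Muc5ac, Cldn18, Ctse, Anxa10, Agr2, Gkn1 and Krt20. The 4 lines with the highest score were set against the 4 with the lowest, and the middle line was left out. The members were therefore chosen from measured expression, and the 10 scoring genes are left out of every count of genes.

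The classical-high lines were M29 from the diaphragm, M30 from the ovary and M28 from the liver of mouse 6, and M3P from the peritoneum of mouse 2. The classical-low lines were M1 from the liver of mouse 1, M16 from the lung and M15 from the diaphragm of mouse 5, and M6 from the peritoneum of mouse 3. M10, from the peritoneum of mouse 4, was the middle line. The other 7 lines came from primary tumors: T3, T6, T19, T23 and T34 from mice 1 to 5 in that order, and T69a and T69b from mouse 6. All came from the KPC model of pancreatic cancer, on the strain given as C57BL6/J. The labels do not list the alleles or the ages of the mice, and no group was treated. All lines grew in Matrigel, in medium holding the TGF-beta receptor inhibitor A83-01, EGF, FGF-10, gastrin, noggin and R-spondin-conditioned medium. Organoids are epithelial cultures without the stroma of a tumor, and each line stands for what grew out of 1 lesion.

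Pancreatic ductal adenocarcinomas are commonly sorted into a classical and a basal-like expression subtype. Classical tumors keep an epithelial program with gastric and intestinal features, which includes secreted trefoil factors and mucins, the stomach claudin Cldn18 and the lectin Lgals4, and which is associated with endoderm factors such as Gata6 and Hnf4a. Basal-like tumors lose much of this program and can express squamous keratins, laminins and mesenchymal genes.

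Total expected counts ran from 24624420 to 47945773 in the 8 lines. M15 stood apart: 72.7% of its counts fell on 3 genes that collect ribosomal RNA reads, against 0.0185% to 18.5% in the other 7 lines, and it had the lowest total. Every mouse with more than 1 metastasis line had all of them in 1 group, so the split sets 2 mice against 3 mice, and mouse and group cannot be told apart. Lines of 1 mouse resembled each other: over all genes tested, the 3 mouse 6 lines had pairwise correlations of 0.37 to 0.65 after centring each gene on the 9 lines, and M15 and M16 one of 0.44. M3P had -0.371 to -0.213 with the mouse 6 lines, -0.208 to 0.018 with the 4 classical-low lines and 0.13 with M10. By this measure M3P was less unlike M1, M16 and M6 than any other classical-high line was. For M15 the least unlike classical-high line was M30, at -0.173, against -0.208 for M3P. Where nothing else is said, levels are CPM (counts scaled to library size, with TMM factors over all 16 lines), and the values of a group follow the order M29, M30, M28, M3P and the order M1, M16, M15, M6.

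The scores were 6.27 in M29, 5.69 in M30, 4.87 in M28 and 4.81 in M3P, against 3.66 in M1, 3.18 in M16, 2.98 in M15 and 2.59 in M6. M10, left out, had 4.42 and lay between M3P and M1. Scores from log2(CPM + 1), or from z scores that weigh the 10 genes alike, gave the same groups. The place of M15 depended on the scaling, however. From log2(CPM + 1) it scored 4.13, the highest of the classical-low lines, against 3.44 in M1, 4.51 in M10 and 4.66 in M3P. The part of its ribosomal RNA share in this was not tested. The tumor lines scored 2.39 to 3.09 in mice 1 to 5, with T69b at 4.69 and T69a at 6.45.

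**Figure D1:**
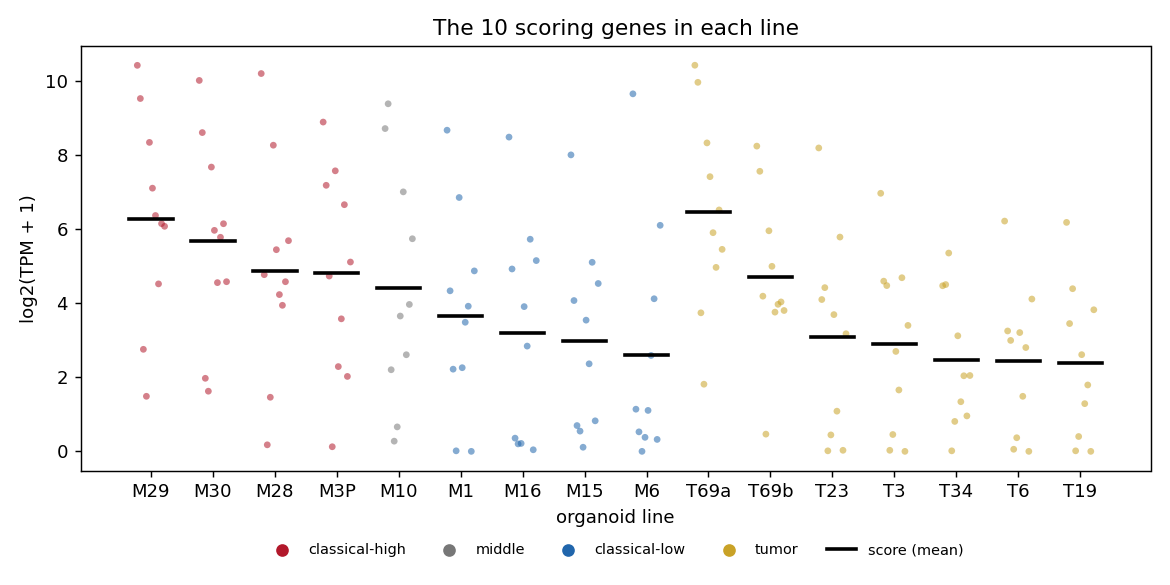
The 10 scoring genes in each line: the x axis gives the organoid line, grouped as classical-high, middle, classical-low and tumor, and the y axis log2(TPM + 1), with 1 point per gene and a bar at their mean, which is the score. Scores were 4.81 to 6.27 in the classical-high lines and 2.59 to 3.66 in the classical-low lines, and the points of 1 line are spread far more widely than the bars of the groups.

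Checked against its own markers, the label held in part. Cldn18 had 578, 399, 495 and 325 CPM in the classical-high lines, against 175, 0.233, 0.478 and 0.579 CPM in the classical-low lines, so M1 expressed it too. Gkn1, a gastrokine of the stomach surface, had no overlap between the groups either. The other 8 scoring genes overlapped, among them Lgals4, with 445 to 1364 CPM in the classical-high lines and 301 to 812 CPM in the classical-low lines. Tff2 was at 0.0407 CPM in M28, below every classical-low line, and Krt20 and Agr2 covered nearly the same range in both groups.

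A gene was called where the CPM of all 4 lines of one group lay above all 4 of the other, the log2 fold change (classical-high over classical-low, from edgeR's quasi-likelihood fit) was at least 1 in size and the higher group averaged at least 1 CPM. No p value is given for a gene, since expression in the same libraries chose the groups. Of 12465 genes with a mean of at least 1 CPM over the 9 metastasis lines, 291 (2.33%) were called, 116 higher (0.931%) and 175 lower (1.40%) in the classical-high lines. These shares are the background of the gene lists below. Most lists are small, so 0 or 1 call in a list is not read as a result about it. On TPM the call gave 145 higher and 64 lower genes, and the median of all genes moved to 0.23 on the log2 scale, against 0.031 on CPM, so the balance of directions depends on the scaling. With mouse as a random effect in limma, 0 of the 12465 genes passed an adjusted p of 0.05 and 967 had an unadjusted p under 0.05. For this split such counts are descriptions and no test, since the same libraries chose the groups.

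In the called genes M3P, which comes from another mouse, often lay apart from the lines of mouse 6. In 69 of the 116 higher genes M3P lay below all 3 lines of mouse 6, in 26 within their range and in 21 above it. Among the 175 lower genes, M3P lay above all 3 in 71, within in 68 and below in 36. The place of M3P was not counted over all genes tested, so these counts are not read as a trait of the called genes. Leaving out M3P gave 774 calls, leaving out M6 517 and leaving out M1 465, while without M15 there were 379, of which 273 were among the 291. Without M29, M30, M28 or M16 there were 298, 397, 341 and 339 in that order. Fewer lines loosen the demand for no overlap, which bears on all these larger counts.

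**Figure D2:**
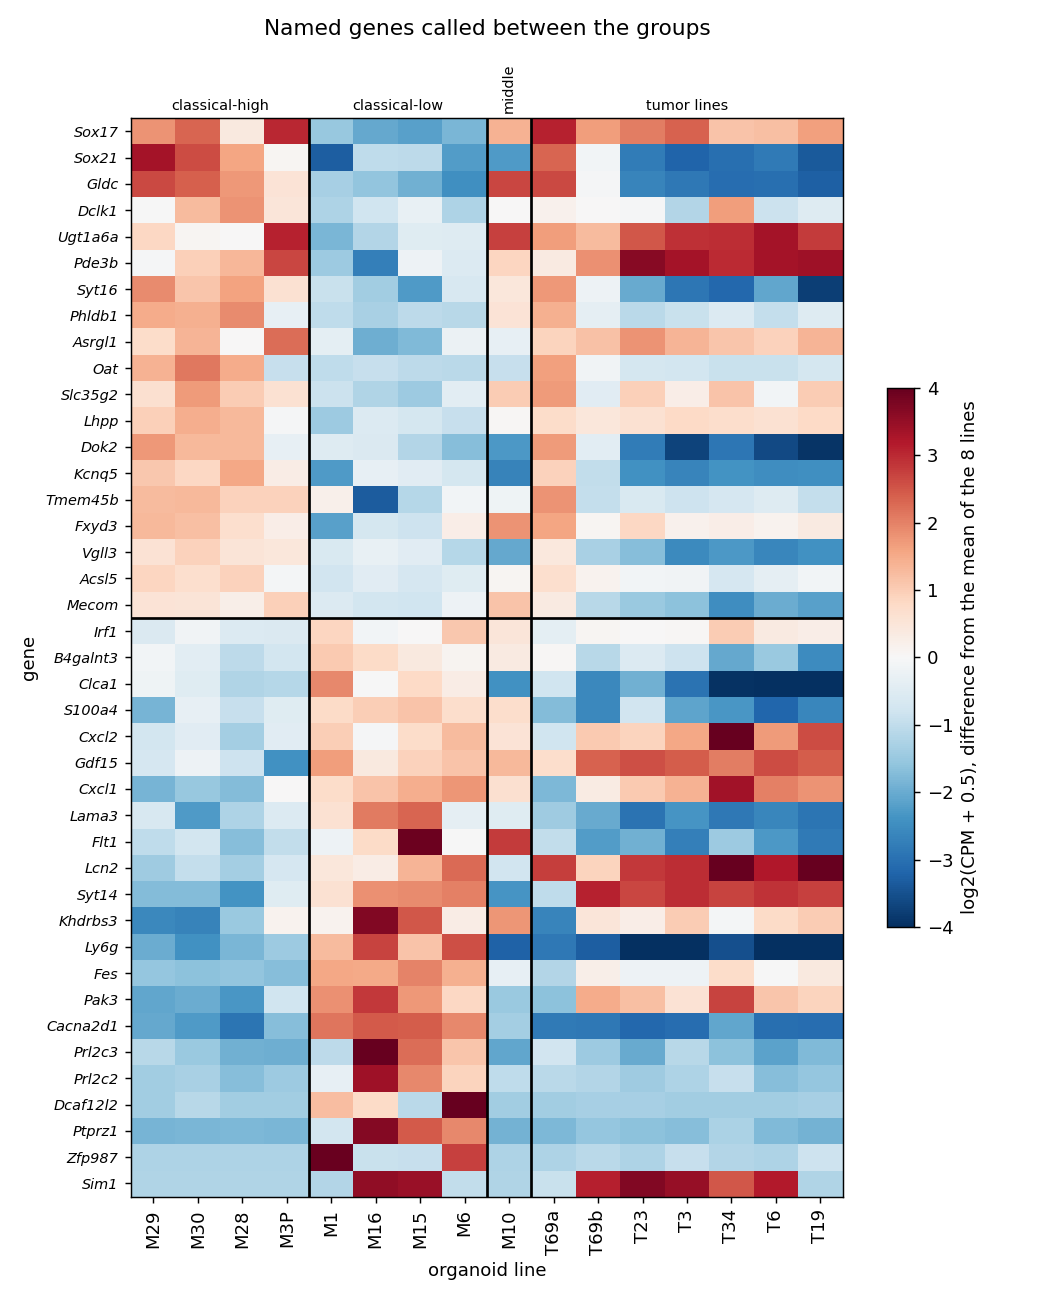
Named genes called between the groups: rows are genes, ordered by log2 fold change with the higher genes above the line, columns are lines by group, and colour gives log2(CPM + 0.5) minus the gene's mean over the 8 lines. The column of M3P is paler than those of the mouse 6 lines for Sox21, and for Oat it has the colour of the classical-low lines. The tumor line T69a, also from mouse 6, resembles the classical-high lines.

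Classical genes other than those of the score were only partly split. Of 20 tested members of the classical subtype list, 2 were called higher (10%, against 0.931% of all genes) and 0 lower. The list's median log2 fold change was 0.32, against -0.0050 over all genes. Tmem45b, a transmembrane protein, had 106, 110, 84.0 and 83.4 CPM in the classical-high lines, against 51.1, 3.92, 19.9 and 40.9 CPM in the classical-low lines (log2 fold change 1.70, SE 0.60). Fxyd3, a regulator of the sodium pump, had 46.6, 43.9, 30 and 22.8 CPM against 3.76, 11.4, 10.4 and 22.6 CPM (1.54, SE 0.48). The groups stayed apart for Tmem45b, while M3P and M6 almost touched for Fxyd3. Genes named here and below that were not called and are not among the fixed transcription factors and markers, such as Cdh17, Elf3, Vsig2, Gkn2, Vsig1, Apob, Galnt4, Dgat2, Mogat2, Cxcl5 and Irf7, were chosen after their values were seen. Some known classical genes overlapped widely: Cdh17, an intestinal cadherin, had 530 to 663 CPM in the classical-high lines and 529 to 731 CPM in the classical-low lines, and Elf3, an epithelial ETS factor, 119 to 160 CPM and 129 to 250 CPM.

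Vsig2, a surface protein of gastric epithelium, had 6.61, 3.25 and 3.13 CPM in M29, M30 and M28 and was at 0 in M3P and in all 4 classical-low lines. Among the 8 lines it was detected in those of mouse 6 alone.

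Stomach genes leaned the same way without separating. Of 9 tested gastric mucosa genes, 0 were called, 8 had positive log2 fold changes and the median was 0.66. Gkn2, a second gastrokine, had 22.5, 24.2, 3.52 and 1.20 CPM in the classical-high lines, against 0, 0.0847, 2.99 and 0.0526 CPM in the classical-low lines. M15 overlapped M3P there. Vsig1, a stomach junction protein, had 71.2, 55.1, 38.3 and 24.1 CPM against 7.58, 7.22, 33.8 and 11.4 CPM, with M15 again above M3P.

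The intestinal genes went both ways. Of 13 tested members, 0 were called higher and 1 lower (7.69%, against 1.40% of all genes), with a median of -0.11. Apob, the lipoprotein of chylomicrons, had 404, 347, 270 and 41.0 CPM in the classical-high lines, against 19.9, 3.24, 14.7 and 41.9 CPM in the classical-low lines. M3P, from mouse 2, was in the classical-low range. Clca1, a goblet cell secretory protein, was the lower gene, with 10.9, 8.65, 5.15 and 5.43 CPM against 48.5, 12.3, 22.1 and 15.3 CPM (-1.73, SE 0.45). Cdx2, the intestinal master regulator, lay at 73.7 to 76.3 CPM in the classical-high lines and at 64.9 to 95.3 CPM in the classical-low lines.

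Of 20 tested genes of mucin glycosylation, 0 were called higher and 1 lower (5%, against 1.40% of all genes). The lower one was B4galnt3, which adds N-acetylgalactosamine to glycans (-1.23, SE 0.28). It had 5.98 to 11.8 CPM in the classical-high lines and 13.9 to 27.3 CPM in the classical-low lines. Galnt4, which starts O-glycan chains, had 214, 190, 188 and 115 CPM in the classical-high lines against 47.9, 50.3, 62.8 and 137 CPM in the classical-low lines, and was not called because M6 lay above M3P.

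Among 23 tested endoderm transcription factors, 1 was called higher (4.35%, against 0.931% of all genes), Sox17, and 0 lower. The list's median was -0.010. Sox17, a factor of definitive endoderm and of the bile duct, had 7.29, 10.7, 2.46 and 17.6 CPM in the classical-high lines. It had 0.281, 0.0423, 0 and 0.132 CPM in the classical-low lines (log2 fold change 6.08, SE 0.85; chr1:4490931-4497354, GRCm38). All 4 classical-low lines were near 0, while M10 had 5.37 CPM and the 7 tumor lines 4.42 to 18.6 CPM, so the low values were those of the classical-low lines and not of the rest of the series.

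Gata6, the factor most often tied to the classical subtype, did not follow the split. It had 23.7, 20.5, 17.1 and 13.9 CPM in the classical-high lines, against 0.141, 14.8, 20.4 and 0.658 CPM in the classical-low lines. M1 and M6 were near 0 and both lines of mouse 5 lay within the classical-high range, while the tumor lines had 22.3 to 33.7 CPM. M1 thus combined near-absent Gata6 with 175 CPM of the scoring gene Cldn18.

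The other factors fixed for naming overlapped as well. Hnf4a, the hepatocyte and gut nuclear receptor, had 91.7 to 174 CPM in the classical-high lines and 53.6 to 182 CPM in the classical-low lines, and Foxa2, a pioneer factor of endoderm, 26.2 to 43.5 CPM and 11.9 to 35 CPM. Foxa1 (-0.01, SE 0.72), Foxa3 (-0.04, SE 0.38) and Klf5 (-0.09, SE 0.27) had log2 fold changes smaller than their errors. Myc had 54.6 to 84.7 CPM in the classical-high lines and 40.7 to 63.6 CPM in the classical-low lines.

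**Figure D3:**
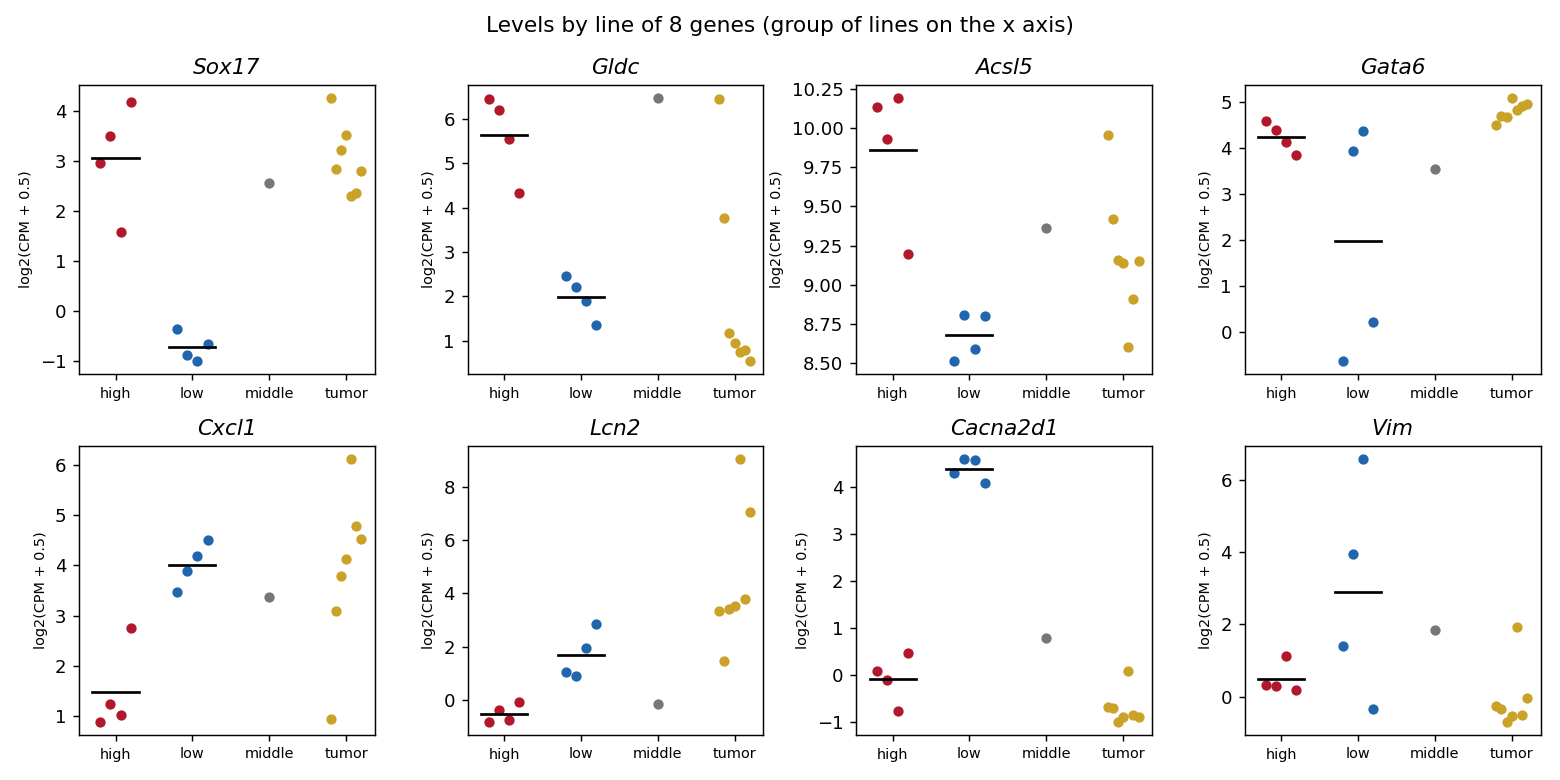
Levels by line of 8 genes: each panel is a gene, the x axis gives the group of lines (classical-high, classical-low, middle, tumor), the y axis log2(CPM + 0.5) on a scale of its own, points are lines and bars the means of the 4 lines. Sox17, Gldc, Acsl5, Cxcl1, Lcn2 and Cacna2d1 do not overlap between the first pair of groups, whereas Gata6 and Vim do.

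The genes with the largest positive log2 fold changes included another developmental transcription factor. Sox21, an HMG-box factor of foregut and nervous system, had 67.3, 40.8, 19.4 and 6.53 CPM in the classical-high lines, against 0.176, 2.84, 2.75 and 0.921 CPM in the classical-low lines (4.36, SE 0.97). M3P was the lowest classical-high line.

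Gldc, the decarboxylase of the glycine cleavage system, had 86.0, 72.5, 46.3 and 19.7 CPM in the classical-high lines, against 5.03, 4.15, 3.22 and 2.05 CPM in the classical-low lines (3.91, SE 0.48; chr19:30098447-30175429). M10 had 87.8 CPM. The tumor lines of mice 1 to 5 had 0.959 to 1.75 CPM, below each of the 9 metastasis lines, the classical-low ones among them. Oat, ornithine aminotransferase, had 388, 632 and 413 CPM in the mouse 6 lines but 77.8 CPM in M3P, just above the 68.9 to 77.6 CPM of the classical-low lines (2.34, SE 0.50). Asrgl1, an asparaginase, was led by M3P instead, with 9.27, 14.5, 5.39 and 26.8 CPM in the classical-high lines against 3.96, 0.995, 1.19 and 4.39 CPM in the classical-low lines (2.37, SE 0.63).

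Ugt1a6a, a UDP-glucuronosyltransferase, and Pde3b, a cyclic nucleotide phosphodiesterase, showed the same M3P lead. Ugt1a6a had 4.63, 2.53, 2.38 and 23.7 CPM in the classical-high lines and 0.316, 0.783, 1.55 and 1.53 CPM in the classical-low lines (3.01, SE 0.90, and 1.61 without M3P). Its transcripts share exons with other Ugt1a genes, so reads may be split among them. Pde3b had 3.94, 8.36, 11 and 28.5 CPM against 1.18, 0.191, 3.46 and 2.61 CPM (2.83, SE 0.87). All tumor lines of mice 1 to 5 had 35.9 to 56.1 CPM of Pde3b, above every one of the 8 metastasis lines.

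Syt16, a synaptotagmin, had 22.3 to 55.3 CPM in the classical-high lines and 2.63 to 9.05 CPM in the classical-low lines (2.6, SE 0.39), and Phldb1, a pleckstrin homology domain protein, 28.5 to 133 CPM and 14.1 to 17.4 CPM (2.44, SE 0.40). Slc35g2, of a transporter family for nucleotide sugars, had 4.61 to 10.5 CPM and 0.717 to 2.03 CPM (2.33, SE 0.41). Lhpp, a phosphatase, had 2.92 to 9.13 CPM and 0.809 to 1.90 CPM (2.18, SE 0.43). Dok2, a docking protein of receptor kinases, had 8.75 to 37.7 CPM in the classical-high lines and 3.03 to 7.58 CPM in the classical-low lines, Kcnq5, a potassium channel, 3.61 to 9.22 CPM and 0.193 to 2.18 CPM, and Mecom, a zinc finger factor, 68.1 to 114 CPM and 33.1 to 49.9 CPM. In these 7 genes the groups were apart in every line, by the narrowest margin in Dok2.

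The lists of lipid metabolism and of xenobiotic and retinoid genes held 1 call each (5% and 4% of tested members, against 2.33% of all genes). Acsl5, which activates long-chain fatty acids at mitochondria and the endoplasmic reticulum, was the 1 gene called among 20 tested of lipid metabolism, with 1120, 975, 1168 and 585 CPM in the classical-high lines, against 365, 447, 385 and 445 CPM in the classical-low lines (1.19, SE 0.21). The list's median was 0.22, and 16 of its members had positive values. Dgat2 and Mogat2, which build triglycerides, had 59.9, 32.2, 36.8 and 10.0 CPM and 24.1, 14.5, 11.6 and 2.35 CPM in the classical-high lines, against 5.47, 7.47, 3.22 and 23.2 CPM and 0.721, 1.71, 1.55 and 3.79 CPM in the classical-low lines. M6 overlapped M3P in both. Of 25 tested xenobiotic and retinoid genes 1 was called higher, Ugt1a6a, with a list median of 0.34.

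Of 22 tested cholesterol genes 0 were called, with a median of 0.25. Soat1, which esterifies cholesterol, did not overlap (194 to 226.5 CPM in the classical-high lines, 142 to 169 CPM in the classical-low lines), but its log2 fold change of 0.38 (SE 0.12) was below the limit.

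Genes of secreted defense formed the list with the most lower calls. Of 9 tested members, 3 were called lower (33.3%, against 1.40% of all genes), 0 higher, and the median was -2.17. Cxcl1, a neutrophil chemoattractant, had 1.35, 1.86, 1.53 and 6.22 CPM in the classical-high lines and 10.6, 14.3, 17.7 and 22.2 CPM in the classical-low lines (-2.59, SE 0.54). Cxcl2, its neighbour and relative, had 0.584, 0.798, 0.203 and 0.819 CPM against 3.08, 1.25, 2.51 and 3.84 CPM (-2.17, SE 0.52). Lcn2, an iron-sequestering defense protein, had 0.0625, 0.266, 0.0814 and 0.435 CPM against 1.56, 1.33, 3.34 and 6.74 CPM (-3.97, SE 0.80).

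M3P was the classical-high line nearest to the classical-low range in all 3 genes. The tumor lines of mice 1 to 5 had 13.3 to 68.8 CPM of Cxcl1 and 10.2 to 534 CPM of Lcn2, so their levels reached above those of the classical-low lines. Cxcl5, another chemokine of this family, had 7.79, 15.7, 4.66 and 63.0 CPM in the classical-high lines, against 296, 59.7, 51.8 and 271 CPM in the classical-low lines, and was not called because of M3P. Without M3P, 6 of the 9 were called lower, while the lower calls over all genes grew to 437 from the 175 with all 8 lines.

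The upstream sequences of Cxcl1 and Cxcl2 are shown because both neighbouring genes were lower and both carry the same decamer, in capitals, of the form that NF-kB is known to bind. The decamer lies in the longest run of letters that both upstream windows share, and was picked after these sequences had been read, so finding it in both is no independent result. They are RefSeq promoter sequences, GRCm38.p6, plus strand.
Cxcl1, chr5:90891134-90891223: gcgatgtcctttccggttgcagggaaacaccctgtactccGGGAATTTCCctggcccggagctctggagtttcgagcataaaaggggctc
Cxcl2, chr5:90903762-90903851: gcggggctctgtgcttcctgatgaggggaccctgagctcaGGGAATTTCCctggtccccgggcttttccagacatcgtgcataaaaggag

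The decamer GGGAATTTCC begins 71 bases before the start of Cxcl1 and 97 bases before that of Cxcl2. Searched on both strands of the 250 bases upstream of each start, it was in 28 of 32851 promoters (0.0852%), or 28 of 27025 genes (0.104%). Among the 107 lower genes with a promoter sequence it was in Cxcl1 and Cxcl2 alone, from which it had been picked, and among the 82 higher genes with one it was in 0. Lcn2 did not hold these letters in its window. A match describes the sequence and does not show that a factor binds.

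Of 9 tested interferon genes 0 were called higher and 1 lower (11.1%, against 1.40% of all genes). All 9 log2 fold changes were negative, with a median of -1.04. Irf1, an interferon-induced factor, had 11.9, 16.1, 12.2 and 11.8 CPM in the classical-high lines against 32.7, 16.6, 18.0 and 37.9 CPM in the classical-low lines (-1.04, SE 0.27). M30 and M16 almost touched. M15 held the highest level of several other members, such as 21.6 CPM of Irf7 against 2.34 to 7.21 CPM in the other 3 classical-low lines and 2.30 to 4.15 CPM in the classical-high lines. Gdf15, a stress cytokine and p53 target, was the 1 gene called among 21 p53 targets (4.76%, against 2.33% of all genes). Its levels were 1.35, 2.05, 1.18 and 0.0512 CPM in the classical-high lines against 8.90, 3.43, 5.13 and 6.05 CPM in the classical-low lines (-2.37, SE 0.77). It had 4.37 to 17.4 CPM in the tumor lines.

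The basal and squamous list leaned opposite to the classical one, while its calls went both ways. Its log2 fold changes were positive in 6 members and negative in 12, against 13 and 7 in the classical list. Of 18 tested members 1 was called higher and 1 lower (11.1% in either direction, against 2.33%), with a median of -0.28. Lama3, a laminin chain of the epithelial basement membrane, had 5.65, 1.49, 3.52 and 6.07 CPM in the classical-high lines and 14.2, 39.9, 47.8 and 7.03 CPM in the classical-low lines (-2.76, SE 0.67). Vgll3, a cofactor of TEAD factors, went the other way, with 4.89 to 6.84 CPM and 1.29 to 2.71 CPM (1.36, SE 0.30).

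Krt7, a duct keratin, had 974, 649, 1463 and 873 CPM in the classical-high lines, against 1828, 2539, 1411 and 1980 CPM in the classical-low lines. M28 and M15 overlapped. Krt17, a basal keratin, had at most 0.0266 CPM in the classical-high lines and 0.381 CPM in the classical-low lines, so it was barely detected in either.

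Of 5 tested mesenchymal genes 0 were called higher and 1 lower (20%, against 1.40% of all genes). The lower one was S100a4, a calcium-binding protein of motile cells. It had 4.65, 14.1, 9.36 and 12.7 CPM in the classical-high lines against 31.3, 36.0, 40.2 and 29.8 CPM in the classical-low lines (-1.78, SE 0.33). Vim, the mesenchymal filament protein, was not called: it had 0.750, 0.719, 1.67 and 0.640 CPM in the classical-high lines, against 2.13, 14.8, 95.5 and 0.289 CPM in the classical-low lines. The high values were those of mouse 5 and M6 was below every classical-high line, and the log2 fold change of -4.97 (SE 1.51) was -2.63 without M15. Zeb1, a repressor of epithelial genes, had at most 0.128 CPM in the classical-high lines and 1.07 CPM in the classical-low lines. All 24 tested epithelial genes stayed between -0.70 and 0.60, with 0 called.

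**Figure D4:**
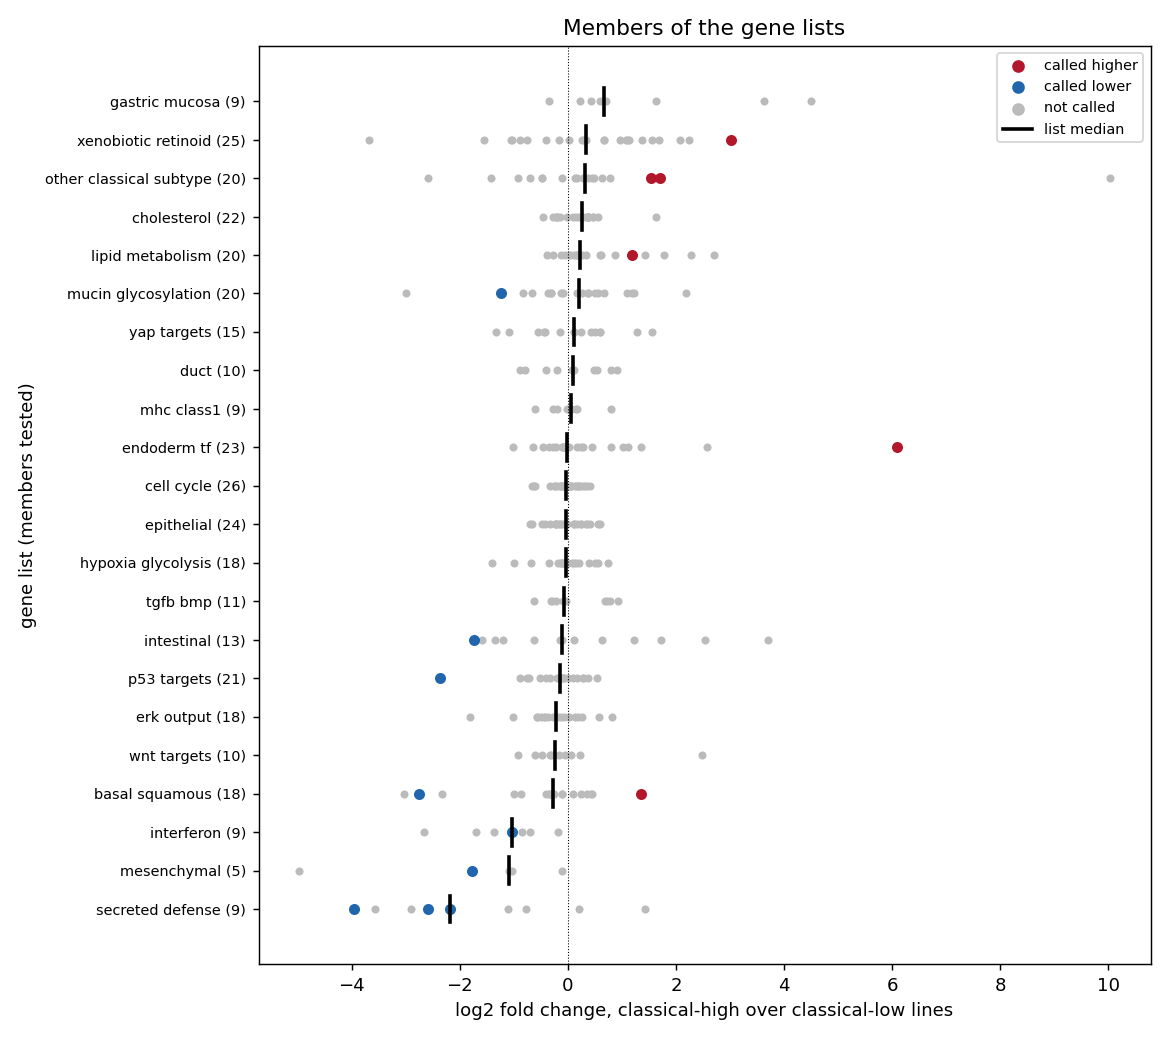
Members of the gene lists with at least 5 tested genes: the x axis is the log2 fold change, classical-high over classical-low lines, each row is a list with its number of tested members, points are genes coloured by call and bars are list medians. Medians ran from 0.66 for gastric mucosa genes to -2.17 for secreted defense genes, and no list holds more than 3 called genes.

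Among the genes with the largest negative log2 fold changes, several were near 0 in all classical-high lines and others were not. Cacna2d1, an auxiliary subunit of calcium channels, had 0.563, 0.426, 0.0814 and 0.870 CPM in the classical-high lines against 19.1, 23.7, 23.4 and 16.4 CPM in the classical-low lines (-5.45, SE 0.59; chr5:15934691-16374511). The tumor lines had at most 0.559 CPM and M10 1.23 CPM, so it was high in the classical-low lines and in no other line. Fes, a cytoplasmic tyrosine kinase, had 0.435 to 0.542 CPM in the classical-high lines, against 7.66 to 11.6 CPM in the classical-low lines (-4.20, SE 0.27), with 0.858 to 4.56 CPM in the tumor lines between them.

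Ptprz1, a receptor phosphatase, had at most 0.0407 CPM in the classical-high lines, against 0.615, 23.1, 9.67 and 6.66 CPM in the classical-low lines (-8.35, SE 1.16). Pak3, a p21-activated kinase, had 0.0611 to 1.13 CPM and 4.53 to 19.7 CPM (-4.80, SE 0.90), and Syt14, a synaptotagmin, 0.0204 to 1.46 CPM and 3.60 to 10.5 CPM (-3.99, SE 0.94). Khdrbs3, an RNA-binding protein, had 0.125, 0.0798, 0.835 and 3.56 CPM in the classical-high lines against 3.59, 47.9, 20.3 and 4.03 CPM in the classical-low lines (-4.09, SE 1.31). M3P and M1 nearly met there, and the high values were those of mouse 5.

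Other lower genes were detected well above 0 in only some of the classical-low lines. Sim1, a basic helix-loop-helix factor, was at 0 counts in all 4 classical-high lines, against 0.0176, 12.8, 12.1 and 0.0789 CPM in the classical-low lines. Zfp987, a zinc finger gene, was likewise at 0 against 17.8, 0.127, 0.119 and 7.34 CPM. Set against a floor of 3 counts over the 4 classical-high lines, their group means were at least 362-fold and 367-fold lower in the classical-high lines, but Sim1 was carried by mouse 5 and Zfp987 by M1 and M6. Dcaf12l2 had 0.106 CPM in M30 and 0 in the other classical-high lines, against 2.58, 1.69, 0.119 and 24.8 CPM in the classical-low lines.

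Prl2c2 and Prl2c3, placental prolactin-family hormones, had at most 0.160 and 0.625 CPM in the classical-high lines, against 0.791 to 16.5 and 0.668 to 43.9 CPM in the classical-low lines, highest in M16. They are near-identical copies, so their separate values are uncertain. Ly6g, a GPI-anchored protein known as a granulocyte marker, had 4.5, 3.14, 5.11 and 6.73 CPM in the classical-high lines against 46.8, 129, 42.6 and 116 CPM in the classical-low lines (-4.13, SE 0.44). The leukocyte gene Ptprc had at most 0.845 CPM in the classical-high lines and 0.395 CPM in the classical-low lines.

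The lists of cell cycle (26 tested), epithelial (24), hypoxia and glycolysis (18), ERK output (18), YAP target (15), TGF-beta and BMP (11), Wnt target (10), duct (10) and MHC class I genes (9) had 0 calls. Cell cycle genes stayed between -0.66 and 0.42.

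Markers of other cell types were uneven within their lists. Alb of hepatocytes, Sftpc and Nkx2-1 of lung and Foxl2 of ovary were at or near 0, with at most 0.0212 CPM in any of the 8 lines, and the collagens Col1a1 and Col3a1 had at most 0.239 CPM, in lines that came from liver, lung, ovary, diaphragm and peritoneum. Other members of the same lists were present. The 9 lung markers summed to 0.916 to 22 CPM in the classical-high lines and 0.404 to 1.97 CPM in the classical-low lines, led by the surfactant protein Sftpd at 21.8 CPM in M3P. The 10 fibroblast markers summed to 0.208 to 10.6 CPM in the classical-high lines and 0.741 to 41.9 CPM in the classical-low lines, led by the surface glycoprotein Pdpn at 10.1 CPM in M3P and 41.6 CPM in M1. The 8 ovary markers summed to 5.48 to 10.7 CPM and 4.42 to 5.24 CPM, and Star, of steroid synthesis, had 5.94 CPM in M3P. The 8 endothelial markers summed to 1.04 to 3.20 CPM in the classical-high lines and 3.31 to 55.6 CPM in the classical-low lines, led by Flt1, a VEGF receptor called lower (-3.80, SE 1.07, and -1.63 without M15). Pecam1 and Cdh5, which define endothelium, had at most 0.128 and 0.0417 CPM in the classical-high lines and 0.239 and 0.0212 CPM in the classical-low lines.

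Dclk1, a kinase of tuft cells, was called higher with 0.834, 2.77, 4.23 and 1.41 CPM in the classical-high lines, against 0.0703, 0.275, 0.597 and 0.0789 CPM in the classical-low lines (3.41, SE 0.82). The tuft markers together summed to 52.8 to 129 CPM and 62.2 to 159 CPM, mostly Ptgs1 and Avil. Ptgs1 alone had 126 CPM in M3P and 156 CPM in M1. Pou2f3, another tuft marker, had 1.58, 1.68, 0.733 and 0.358 CPM in the classical-high lines against 0.229, 0.0212, 0 and 0.368 CPM in the classical-low lines. Trpm5, a channel that defines tuft cells, had at most 0.396 and 0.597 CPM. Mesothelial markers summed to 347 to 774 CPM in the classical-high lines and 304 to 732 CPM in the classical-low lines, nearly all Msln, which pancreatic cancers also express. The part of any other cell type in the results was not tested.

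Calls were spread unevenly over chromosomes, a pattern looked at after values were seen. Chromosome 19 held 15 higher genes of 449 tested (3.34%, against 0.931% of all genes) and 0 lower ones, and its median log2 fold change was 0.52. Chromosome 9 held 20 higher genes of 719 (2.78%), with a median of 0.19. Chromosome 5 held the most lower genes, 23 of 844 (2.73%, against 1.40% of all genes), with a median of 0.017. Chromosome X held 11 lower genes of 367 (3.00%, against 1.40%), with a median of -0.27.

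The lines did not share these shifts evenly. Relative to the 9 lines, the median gene of chromosome 19 was at 0.45, 0.39, 0.41 and -0.09 in the classical-high lines and at -0.14, -0.35, -0.48 and 0.03 in the classical-low lines, so it was high in mouse 6 and low in mouse 5. For chromosome X the value of 0.49 in M1 stood apart from -0.05 to 0 in the other 3 classical-low lines and -0.13 to 0 in the classical-high lines. M10, the middle line, had a value of 0.33 there. For chromosome 12 it was 0.19, 0.20, 0.29 and 0 in the classical-high lines and -0.05, -0.12, -0.21 and -0.41 in the classical-low lines. Gldc, Asrgl1 and Acsl5 lie on chromosome 19, and the part of the chromosome in their values was not tested.

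**Figure D5:**
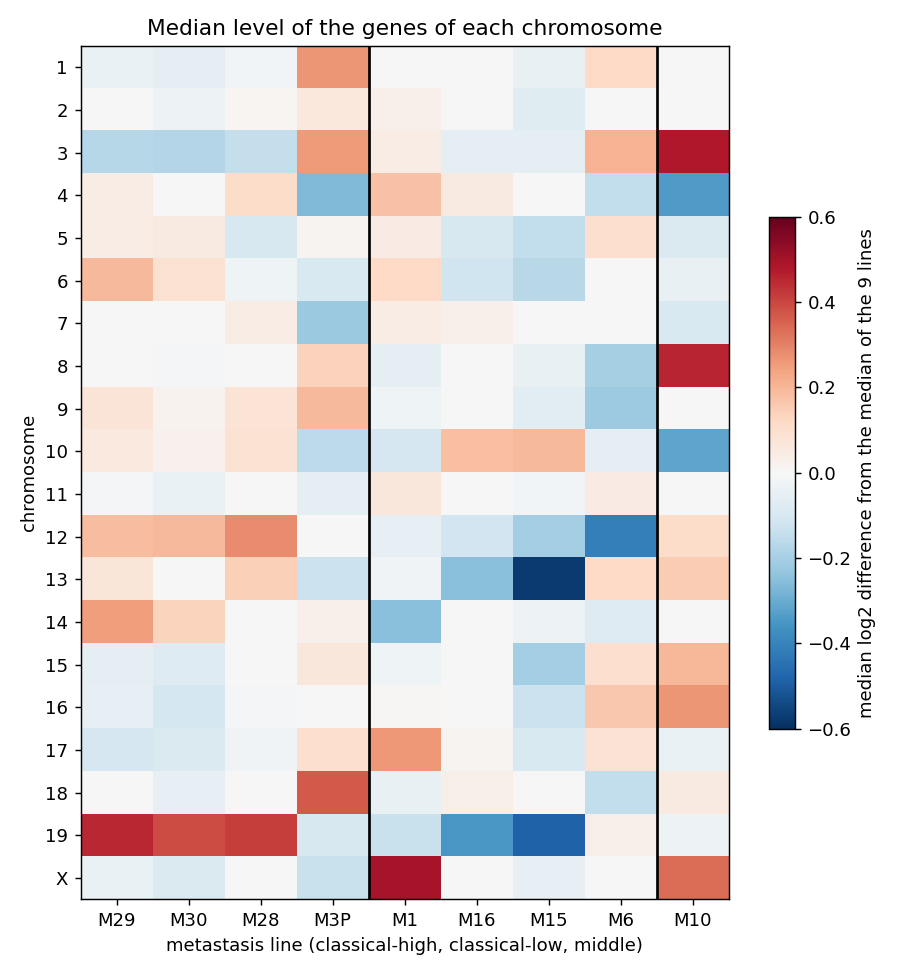
Median level of the genes of each chromosome: rows are chromosomes, columns the 9 metastasis lines by group, and colour is the median over genes of log2(CPM + 0.5) minus the gene's median over the 9 lines. Chromosome 19 is at 0.39 to 0.45 in the 3 mouse 6 lines and at -0.48 to -0.35 in M15 and M16.

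The 7 tumor lines, which the split did not use, gave a test of whether the same genes follow the score. Their score was entered as a continuous covariate in edgeR's quasi-likelihood test, with Benjamini-Hochberg adjustment over 12649 genes, and 2500 genes passed an adjusted p of 0.05 (19.8%), 1507 with a positive slope (11.9%) and 993 with a negative one (7.85%). Of the 116 higher genes 107 were tested, and 41 passed with a positive slope (38.3%) and 10 with a negative one. Of the 175 lower genes 118 were tested, and 21 passed with a negative slope (17.8%) and 13 with a positive one.

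This result rested on mouse 6, whose T69a and T69b had the highest tumor scores. Without T69a 16 genes passed, 1 of them a higher gene, and without both lines 0 passed, with 511 at an unadjusted p under 0.05. Mouse 6 also gave 3 of the 4 classical-high lines, so the tumor lines do not test the genes in other mice. In the tumor lines of mice 1 to 5 the scores covered only 2.39 to 3.09.

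Gldc had the lowest adjusted p among the called genes, with a slope of 1.61 log2 units per unit of score (SE 0.05, edgeR adjusted p = 6.1e-06), and was the higher gene that passed without T69a (adjusted p = 0.0136). It had 85.9 CPM in T69a, 13.1 CPM in T69b and 0.959 to 1.75 CPM in the other 5 tumor lines. Sox21 had a slope of 1.83 (SE 0.12, edgeR adjusted p = 0.000274) and Dok2 one of 1.59 (SE 0.15, adjusted p = 0.00105). Cxcl1 and Cxcl2 had negative slopes of -1.10 (SE 0.20, edgeR adjusted p = 0.00979) and -1.07 (SE 0.29, adjusted p = 0.0378), which were 0.251 and 0.396 in adjusted p without T69a.

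Some named genes went against their direction among the metastasis lines. Pde3b, higher in the classical-high lines, had a slope of -0.76 in the tumor lines (SE 0.11, edgeR adjusted p = 0.00434), Ugt1a6a one of -0.41 (SE 0.10, adjusted p = 0.0326), and Lama3, lower in the classical-high lines, one of 0.46 (SE 0.09, adjusted p = 0.0144). Sox17 had a slope of 0.36 and did not pass (SE 0.11, adjusted p = 0.0534).

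Set beside the group means of the called genes, T69a was nearer to the classical-high mean for 108 of the 116 higher genes and 161 of the 175 lower genes. T69a comes from mouse 6, as do M29, M30 and M28, whose levels entered that mean and the calls. Its nearness is therefore no independent result, and the share over all genes was not counted. T69b, from the same mouse, was nearer for 62 and 121, and M10 for 62 and 117. The tumor lines of mice 1 to 5 were nearer to the classical-high mean for 45 to 54 of the higher genes and 113 to 123 of the lower genes.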

How the data were processed

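RNA-seq of total RNA from 16 organoid lines was used as deposited. The authors aligned reads with STAR 2.6.0c and quantified genes with RSEM 1.3.1 on GRCm38.p6 after FastQC 0.11.8, per the submitters' processing notes. The strand setting and annotation release are not given in the sources used here. The deposited expected counts of RSEM were rounded to whole numbers for fits, and the deposited TPM values served for the score. Isoform values were not used. Some genes that the naming rule picks are not reported here.

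CPM used TMM factors over all 16 lines. Log2 fold changes and errors of the classical-high over classical-low lines came from edgeR 4.0.16 (R 4.3.3), on genes with a mean of at least 1 CPM over the 9 metastasis lines. The SE is the fold change divided by the square root of F. Scripts were tested on simulated data. limma 3.58.1 and DESeq2 1.42.0 served for alternatives. For the limma fit the correlation of lines of 1 mouse was 0.59. The labels' replicate numbers run on within tumor and within metastasis lines and pair no samples, so the mouse, which the labels give, was the block. Lines are separate cultures, but some share a mouse, so p-values treat related lines as independent.

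The members and gene lists were chosen with earlier results of these data known. Genes were named by rule: per direction the 12 called genes farthest from 0, provided that their higher group averaged 5 CPM or more and that the symbol was no predicted model, up to 4 called members per list, a fixed set of factors and markers, and the 5 called genes of lowest adjusted p in the tumor lines. After the values were seen, outdated symbols in the lists were replaced or dropped and the ribosomal RNA linked genes were set, and the CPM behind the calls was changed to the 16-line scaling used in the text. With the scaling over the 8 lines, 287 genes had been called, 276 of them shared with the 291. Gene names and coordinates are those of a GRCm38 annotation, and promoters those of RefSeq.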

Additional observations from a re-analysis of the deposited data

Results flagged for a closer look

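Of 108 sets of 4 lines examined (the named genes, the score and the ribosomal RNA share in each group), 5 held a line whose gap to the nearest other line, divided by the range of the 4, was above Dixon's critical value for 4 values. Chance flags about 1 in 20 such sets. In the classical-high lines, M30 had 0.106 CPM of Dcaf12l2 where the other 3 had 0, and 16.1 CPM of Irf1 where they had 11.8 to 12.2 CPM. M28 had 43.5 CPM of Foxa2 where the other 3 had 26.2 to 28.2 CPM, and 1.67 CPM of Vim where they had 0.640 to 0.750 CPM. In the classical-low lines, M1 had 3.60 CPM of Syt14 where the other 3 had 9.14 to 10.5 CPM.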

How the results depend on the processing

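The call of 291 genes, 116 higher and 175 lower, gave 64 lower genes on TPM, 32 genes (18 and 14) by edgeR's adjusted p, 953 (494 and 459) by DESeq2's, and 941 (359 and 582) with 3 lines a group. With mouse as the replicate block in limma it gave 0 (0 and 0), with 967 genes at an unadjusted p under 0.05. These counts by p value describe the split and do not test it, since the same libraries chose the groups. Averaging the lines of 1 mouse gave 454, with 292 lower. Chosen after seeing the data, M3P alone against the classical-low lines gave 1021 (423 and 598), 189 of them shared with the 291. Leaving out 1 line at a time gave 298 to 774 genes, with at most 337 higher (without M3P) and 437 lower (without M3P). Fewer lines or averaged lines loosen the demand for no overlap, which bears on all these larger counts. The higher count was 119 without M30 and 255 without M6, and the lower count 321 without M1 and 278 without M30. The 2500 genes that followed the score in tumor lines became 37 on ranks of the score, with 2 of the higher and 0 of the lower genes, and 874 with both mouse 6 lines summed as a replicate block, with 27 and 8. DESeq2 found 40 of the lower genes. Leaving out 1 tumor line gave 16 genes (without T69a) to 3382 (without T69b), and 1525 without T19. Of the higher genes 1 passed without T69a and 48 without T69b, of the lower genes 0 and 34. Without both mouse 6 lines, chosen after seeing the data, 0 passed, with 0 and 0. Tumor slopes turned sign without T69a for Tmem45b (-0.115), Fxyd3 (-0.0623) and Klf5 (-0.0528), against up to 0.66, 0.344 and 0.315 without T69b, and without both mouse 6 lines for Pde3b (0.45), Phldb1 (-0.62) and Kcnq5 (-0.76). The cause was not tested. Single lines also moved log2 fold changes of named genes: without M3P, Cxcl1 was -3.40 and Pak3 -6.22. M15, with the fewest usable counts, limits the lowest levels in the classical-low lines.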

Other observations

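The genes in this section were chosen after their values were seen, and no explanation is offered for them. The following 4 were picked by hand from the 175 lower genes, stand for no list and were counted against no background. Tnf, an inflammatory cytokine, had 1.58, 2.08, 1.04 and 0.666 CPM in the classical-high lines, against 11.8, 4.32, 5.49 and 8.58 CPM in the classical-low lines (log2 fold change -2.52, SE 0.45). Vcam1, an adhesion molecule, had 0.230 to 0.305 CPM against 1.48 to 6.69 CPM (-3.58, SE 0.55), and M10 had 12.6 CPM. Ptgs2, the inducible cyclooxygenase, had 3.10 to 13.2 CPM against 16.9 to 33.1 CPM (-1.60, SE 0.41). Lif, a cytokine, had 0.479 to 2.25 CPM against 3.49 to 5.19 CPM (-2.10, SE 0.51).

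Among higher genes, Ihh, the hedgehog ligand of gut epithelium, had 2.63, 5.19, 2.02 and 6.76 CPM in the classical-high lines, against 0.141, 0.148, 0.358 and 0.316 CPM in the classical-low lines (4.18, SE 0.57). Mst1r, a receptor kinase, had 11.4 to 17.2 CPM against 4.74 to 8.39 CPM (1.06, SE 0.26). Ahr, the aryl hydrocarbon receptor, had 30.4 to 60.6 CPM against 18.8 to 26.9 CPM (1.16, SE 0.23).

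Ly6a and Ly6c1, relatives of Ly6g, were called lower as well, with log2 fold changes of -1.08 (SE 0.22) and -1.95 (SE 0.35). Of 26 genes known from the 2-cell embryo that were looked at, 22 were tested, 5 were called lower and 0 higher, against 1.40% of all genes called lower, and the median log2 fold change of the 22 was -2.15. Among the 8 lines M16, from mouse 5, had the highest value of each tested gene except Arg2, and M1 overlapped M30 in many of them. Zscan4f, which was not called, had 8.25, 13, 5.15 and 9.60 CPM in the classical-high lines, against 12.8, 88.6, 44.4 and 32.9 CPM in the classical-low lines. Many of these genes are near-identical copies, so reads may be split among them.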
